A study of Homo sapiens with 17 samples.

Results

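L1MC and L1MD are 2 groups of old LINE-1 (L1) subfamilies, and the copies described here are all annotated copies of them in the human genome. The members are the loci of the deposited table of repeat loci whose subfamily name starts with L1MC or L1MD. They number 121719 of 3594049 loci, in 17 of 1080 subfamilies, and cover 54.9 Mb. L1MC has 91947 copies in 11 subfamilies and L1MD has 29772 copies in 6. RNA was sequenced from N2102Ep, an established human embryonal carcinoma cell line, either in full or after a pulldown of an L1 protein on affinity media (RNA immunoprecipitation, RIP). Of the 17 libraries, 4 are from the ORF2p RIP, 4 from the ORF1p RIP, 3 from a mock IP and 6 from total RNA. The labels describe the mock IP libraries with the term mIgG and do not say how this control relates to the antibodies of the RIPs. The comparisons ask which RNAs come down with each protein.

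All 4 groups carry the same cell line label and no gene edit or drug is named. The libraries of 3 groups (ORF2p RIP, mock IP, total RNA) have the source label "N2102Ep clone 2/A6", while those of the ORF1p RIP have the source label "embryonal". The protein pulled down and this difference in source therefore cannot be told apart. The sample names put total RNA replicates 1 and 2 in a series "b" and the other 4 in a series "bl", whose meaning is not given. Nothing says that replicates came from separate cultures, so the p-values rest on a spread between libraries that could be technical alone. The table held no genes, so the labelled cell line was not checked against marker genes. These are bulk libraries, in which fewer cells with an RNA and less of it per cell cannot be told apart.

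L1 is the autonomous retrotransposon of mammals. ORF1p is its RNA-binding protein and ORF2p its endonuclease and reverse transcriptase, and both act preferentially on the RNA that encodes them. The letter M marks subfamilies that are shared by many mammals and amplified long before the primate-specific L1PA lineage. Their copies have gathered so many mutations and truncations that they are not thought to move any longer. Their sequence is now read mostly as a part of other transcripts, such as introns and long noncoding RNAs, and a few copies hold the start of such a transcript.

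RefSeq (GRCh38.p14) places a transcription start inside 73 of the copies, and 2 of these had enough reads to be tested alone. Both windows around these starts are shown because the copies differ in behaviour between the groups, as described further on. The first lies at chr7:119706322-119706621 in an L1MCb copy (chr7:119705201-119707009, minus strand) within the long noncoding RNA gene LINC02476. The other lies at chr12:40072268-40072567 in an L1MCa copy (chr12:40071292-40073249, minus strand) within SLC2A13, which encodes a myo-inositol transporter. Each window is on the plus strand, that of the started gene. It runs 5′ to 3′ with 250 bases before the start in lower case and 50 bases from it in capitals.
LOC107986840 start in the L1MCb copy: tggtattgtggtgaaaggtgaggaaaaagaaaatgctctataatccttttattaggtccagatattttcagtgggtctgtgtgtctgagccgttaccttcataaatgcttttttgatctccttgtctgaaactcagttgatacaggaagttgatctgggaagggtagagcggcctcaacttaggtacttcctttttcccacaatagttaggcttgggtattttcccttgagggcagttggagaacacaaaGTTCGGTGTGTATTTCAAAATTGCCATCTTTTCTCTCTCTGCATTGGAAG
LOC112268095 start in the L1MCa copy: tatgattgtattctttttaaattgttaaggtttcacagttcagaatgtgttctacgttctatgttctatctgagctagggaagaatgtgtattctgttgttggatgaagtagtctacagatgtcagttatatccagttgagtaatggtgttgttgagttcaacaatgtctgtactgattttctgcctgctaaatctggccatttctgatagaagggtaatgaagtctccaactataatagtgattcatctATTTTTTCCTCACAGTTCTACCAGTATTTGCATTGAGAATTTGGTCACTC
Both windows lie wholly inside their copy. Their GC contents are 41.3% and 35.3%, against a median of 58.7% over 35116 RefSeq windows of this length. The motif TATAAA, searched on both strands, is in neither window and in 11.5% of all of them. The gene and the copy run on opposite strands in both cases, so a transcript from either start would read the copy as antisense.

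The members are short and worn. Their median length is 293 bases, and 70.2% are under 500 bases. The median divergence from the subfamily consensus is 22.2%, from 15.8% in L1MC1 to 27.4% in L1MCc. L1MC4 is the most numerous subfamily with 19406 copies, and L1MDb the least with 796. The median length runs from 207 bases in L1MC to 462 in L1MCb. Of all copies, 62.3% lie inside the span of a RefSeq gene, 0.366% cross the edge of one and 37.3% lie outside every span. Spans come without exons here, so exonic and intronic copies were not separated. Of the copies inside, 23.8% are on the strand of the gene and 48.1% are on the opposite strand. For 28.1% the strand relative to a gene is unclear. L1MCb has the smallest share inside genes, 44.9%, and L1MC5 the largest, 70.5%. At least 1 read was assigned to 101901 copies, and 19818 had none in any library.

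The ORF1p RIP libraries stood apart from the other 13 libraries over these copies. Across the 1840 copies with enough reads to be tested, log2(CPM + 0.5) correlated within the ORF1p RIP group at Pearson's r of 0.92 to 0.98. Against ORF2p RIP libraries r was −0.10 to −0.08, against mock IP libraries −0.14 to −0.05, and against total RNA libraries −0.22 to −0.10. ORF2p RIP libraries correlated with mock IP libraries at 0.42 to 0.48, and mock IP with total RNA libraries at 0.74 to 0.91. CPM is the count in 1000000 repeat reads, scaled between libraries by TMM. These correlations are over copies that share libraries and depth and are given as a description. A copy could enter through the 1 group in which it is high, which can lower r between groups. Over 32032 tested copies of all repeats, r between ORF1p RIP and total RNA libraries was −0.21 to −0.12. ORF1p RIP replicate 3 differed from the others of its group, and total RNA series bl from series b, in ways given beside the results they touch. Repeat reads numbered 9795032 to 17056092 in the ORF2p RIP, 7693841 to 9125527 in the ORF1p RIP, 12703395 to 16271143 in the mock IP and 8937441 to 19670774 in the total RNA libraries.

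Taken as one, the 17 subfamilies held 4.40% to 4.92% of the repeat reads in ORF2p RIP libraries, with a mean of 4.72% ± 0.239 (SD, n = 4). The share was 4.34% to 4.63% in ORF1p RIP (4.45% ± 0.124, n = 4) and 3.90% to 4.29% in mock IP libraries (4.09% ± 0.194, n = 3). Every library of either RIP was above every mock IP library. In total RNA the share was 5.96% to 6.35% in series bl and 3.9999% to 4.30% in series b, so that group spans both RIPs. L1MD alone took 1.41% to 1.52% in ORF2p RIP, 1.1% to 1.2% in ORF1p RIP and 0.95% to 1.04% in mock IP libraries, with no overlap between those 3 groups. L1MC alone took means of 3.24%, 3.31% and 3.10% in those groups. Its ranges of 2.99% to 3.41%, 3.21% to 3.48% and 2.95% to 3.25% overlapped among all 3 groups, the mock IP included.

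**Figure D1:**
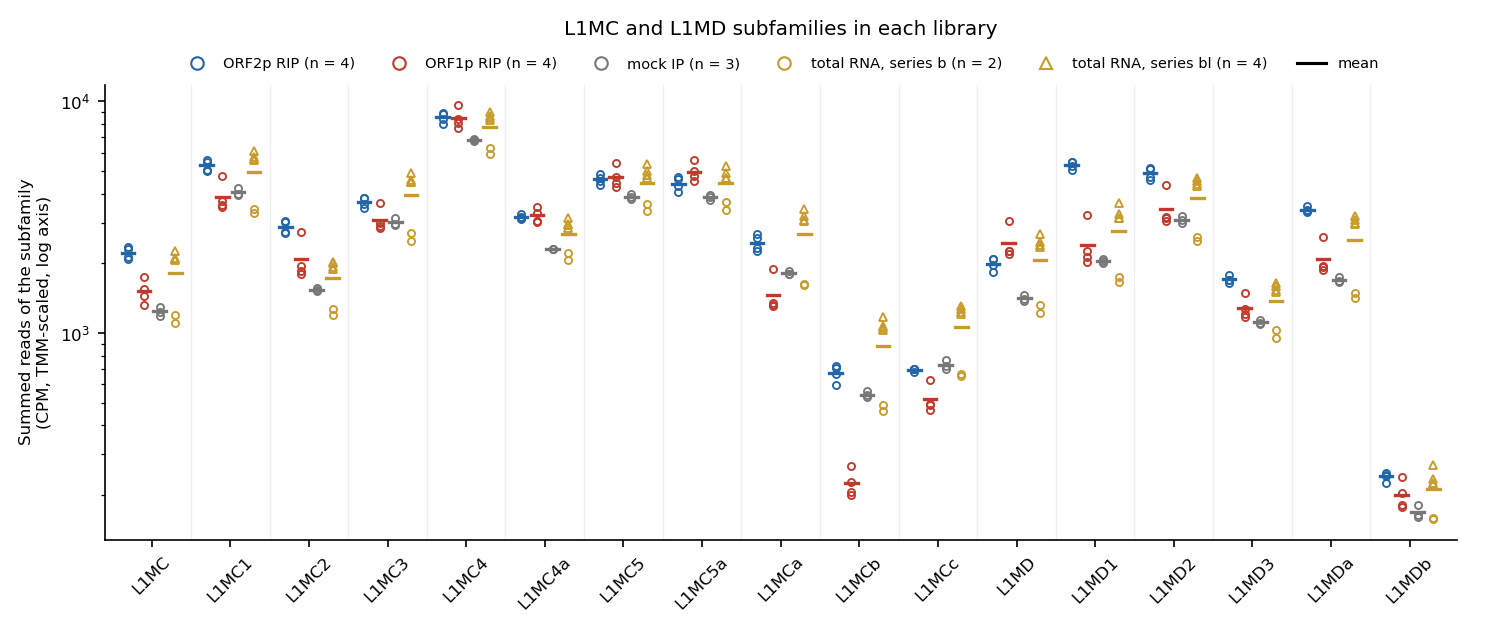
Summed level of each of the 17 subfamilies in each library, in CPM on a log axis, with a bar at each group's mean. Triangles are total RNA series bl, which lies above series b in every subfamily. L1MD1 stands at 5057 to 5487 CPM in the ORF2p RIP libraries, and L1MCb at 199.99 to 267 CPM in the ORF1p RIP libraries.

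Per Mb of copies, the order of the subfamilies was not the same in the 4 groups. L1MC5 had the highest level per Mb in ORF1p RIP (1254 CPM per Mb), mock IP (1031) and total RNA (1186). In ORF2p RIP libraries L1MD1 was first at 1562 CPM per Mb, while it ranked 10 in ORF1p RIP (707) and 12 in mock IP (602). L1MCb, last of the 17 in ORF1p RIP at 262 CPM per Mb, ranked 13 in ORF2p RIP (779), 10 in mock IP (629) and 4 in total RNA (1024). These ranks are group means, and neighbours in the order often lay closer than the spread of their libraries.

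With the ORF2p RIP, L1MD1 and L1MDa were the subfamilies that rose at least 2-fold over the mock IP. L1MD1 had 5487, 5490, 5238 and 5057 CPM in ORF2p RIP libraries, against 2052, 2091 and 2005 CPM in mock IP libraries. The groups are far apart, and the log2 change was 1.38 ± 0.25 (SE; adjusted p = 0.0006). L1MDa had 3369, 3519, 3385 and 3323 CPM in ORF2p RIP, against 1663, 1754 and 1674 CPM in mock IP libraries. Its log2 change of 1.002 ± 0.25 (adjusted p = 0.0066) lies at the 2-fold limit. It fell to 0.98 or 0.99 when ORF2p RIP replicate 2, mock IP replicate 1, mock IP replicate 3 or total RNA replicate 3 was left out. These 2 of 17 compare with 6.7% of all 1074 subfamilies called higher and 1.49% called lower. No member was called lower. An adjusted p under 0.05 at any size was reached by 8 of 17, all higher, against 16.7% of all subfamilies higher and 15.5% lower. The other 6 were L1MC2 (log2 change 0.90), L1MC (0.84), L1MD2 (0.66), L1MD3 (0.61), L1MDb (0.52) and L1MC4a (0.46). Every ORF2p RIP library was above every mock IP library in 16 of 17 subfamilies, against 29.3% of all subfamilies. The exception was L1MCc, at 698, 701, 680 and 703 CPM against 701, 769 and 722 CPM. The median change of the 17 was 0.46, against −0.03 over all subfamilies. With libraries scaled to their totals alone, these medians were 0.15 and −0.34.

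The rise of L1MD1 was carried by few copies. Its leading copy, chr8:33047435-33049452 in the span of the uncharacterised gene LOC105379362, held 22.7% of the subfamily's level in the ORF2p RIP, 8.16% in the ORF1p RIP, 1.12% in the mock IP and 1.72% in total RNA. The 10 highest copies of each group, which need not be the same ones, held 63.6%, 27.1%, 12.5% and 17.8% in the same order of groups. Without the leading copy the log2 change of L1MD1 over the mock IP was 1.02 (adjusted p = 0.0044). Over the copies outside gene spans alone it was 0.25 (adjusted p = 0.53), and over the copies inside or across them 1.65. For L1MDa the change without its leading copy was 1.05, and 1.36 over the copies outside gene spans.

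With the ORF1p RIP, L1MCb was the only member that passed 2-fold against the mock IP, and it was lower. It had 227, 207, 267 and 199.99 CPM in ORF1p RIP libraries, against 527, 560 and 538 CPM in mock IP libraries. The groups do not overlap, and the log2 change was −1.27 ± 0.27 (adjusted p = 0.00078). This 1 of 17 compares with 8.75% of all subfamilies called lower, and the 0 called higher with 7.36% by edgeR's quasi-likelihood test. At an unadjusted p under 0.05 that test had 5 members higher and 2 lower, against 29% and 27.5% of all subfamilies, and DESeq2 called 0 higher and 1 lower at 2-fold. Below 2-fold, 3 of 17 passed an adjusted p of 0.05 in the higher direction, against 26% of all subfamilies. L1MD was the largest of these, with 2256, 2268, 3041 and 2185 CPM in ORF1p RIP libraries and 1378, 1464 and 1398 CPM in mock IP libraries (log2 change 0.79, adjusted p = 0.0098). The others were L1MC4a (0.48) and L1MC5a (0.37). Without ORF1p RIP replicate 3, whose level was the highest of its group, the L1MCb change was −1.36. The libraries did not overlap in 9 of 17 subfamilies that were higher, against 37% of all, and in 2 that were lower, against 31.8%. The lower ones were L1MCb and L1MCc (−0.49, which did not pass). The median change of the 17 was 0.26, against 0.02 over all subfamilies.

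**Figure D2:**
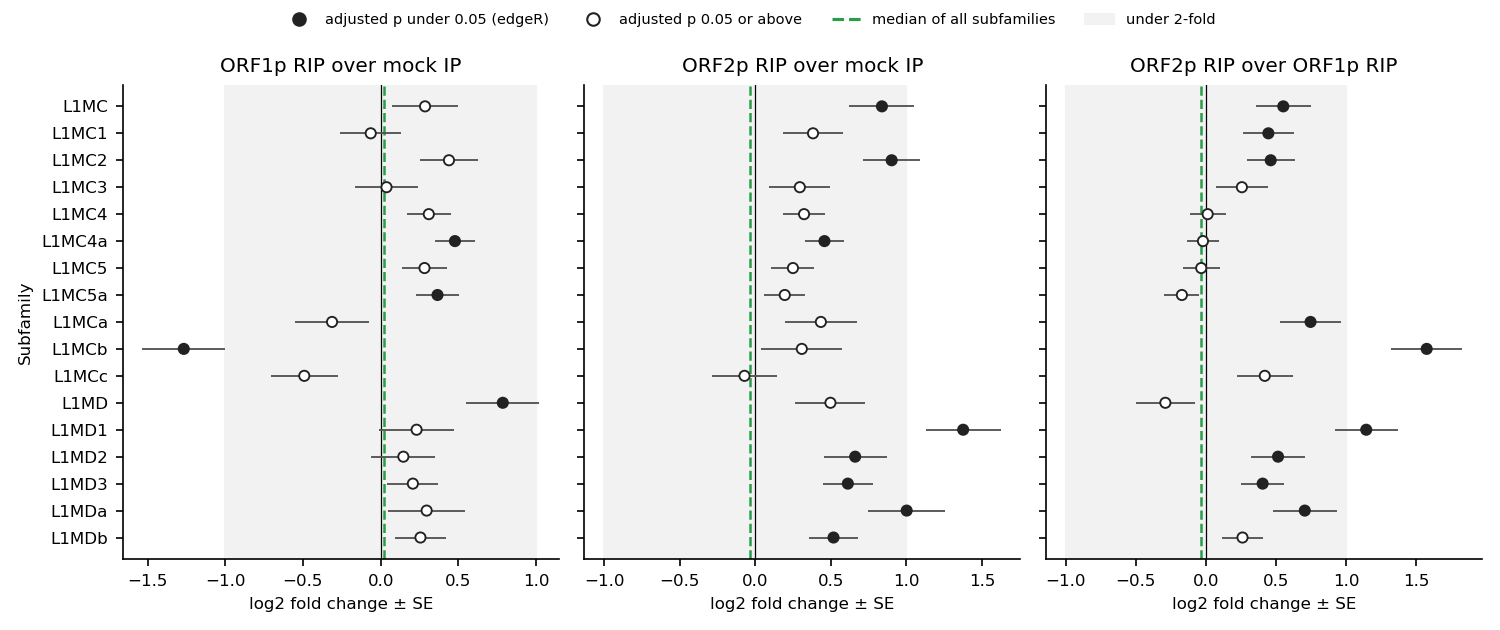
Log2 fold change ± SE of each subfamily, for ORF1p RIP over mock IP, ORF2p RIP over mock IP and ORF2p RIP over ORF1p RIP. Filled points have an adjusted p under 0.05, the grey band is under 2-fold and the dashed line is the median of all 1074 subfamilies. L1MCb (−1.27) lies left of the band in the ORF1p RIP panel, and L1MD1 (1.38 and 1.14) right of it in both ORF2p RIP panels.

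Between the pulldowns, L1MCb and L1MD1 rose at least 2-fold in the ORF2p RIP relative to the ORF1p RIP. L1MCb had 595, 704, 722 and 663 CPM in ORF2p RIP libraries, against 227, 207, 267 and 199.99 CPM in ORF1p RIP libraries. The log2 change was 1.58 ± 0.25 (adjusted p = 6.2e-05). L1MD1 had 5057 to 5490 CPM in ORF2p RIP libraries, against 2121, 2254, 3225 and 2024 CPM in ORF1p RIP libraries (1.14 ± 0.22, adjusted p = 0.0004). No library of one group reached the other in either subfamily. Without ORF1p RIP replicate 3 these changes were 1.67 and 1.32. The L1MD1 change was 0.89 without its leading copy and 0.95 with libraries scaled to their totals, both under 2-fold. These 2 of 17 compare with 12.4% of all subfamilies called higher. None of the 17 was called lower, against 6.52%. In edgeR's test 9 members had an adjusted p under 0.05 at any size, all higher, against 28.1% of all subfamilies higher and 28.3% lower. Besides the pair already given they were L1MCa (0.75), L1MDa (0.71), L1MC (0.55), L1MD2 (0.52), L1MC2 (0.46), L1MC1 (0.45) and L1MD3 (0.41). L1MD was the 1 subfamily whose ORF2p RIP libraries, at 1839 to 2096 CPM, all lay below the ORF1p RIP libraries, at 2185 to 3041 CPM (30.1% of all subfamilies do so). Its log2 change of −0.29 did not pass the test.

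Against total RNA, 2 of 17 subfamilies were called lower in the ORF1p RIP, L1MCb at −1.97 (adjusted p = 4e-06) and L1MCc at −1.03 (adjusted p = 0.00021). Of all subfamilies 8.29% were called lower and 9.12% higher. At any size, L1MCa was also lower (−0.87, adjusted p = 0.0018) and L1MC4a higher (0.26, adjusted p = 0.047), against 28.6% of all subfamilies lower and 29.1% higher. Without ORF1p RIP replicate 3, L1MC4a no longer passed an adjusted p of 0.05 (0.22, adjusted p = 0.12). L1MCa passed 2-fold without that replicate (−1.01). L1MCb had 462 and 490 CPM in total RNA series b and 1032 to 1176 CPM in series bl, all above its 199.99 to 267 CPM in ORF1p RIP libraries. L1MCc had 468, 494, 629 and 487 CPM in ORF1p RIP libraries, against 663 and 652 CPM in series b and 1214 to 1312 CPM in series bl. Without series bl the changes were −1.15 for L1MCb and −0.41 for L1MCc. The 2-fold call of L1MCc also ended when ORF1p RIP replicate 1 or 4, or total RNA replicate 4, 5 or 6, was left out (−0.95 to −0.996). For the ORF2p RIP, edgeR called 0 of 17 at 2-fold against total RNA, where 5.12% of all subfamilies were called higher and 1.3% lower. At an unadjusted p under 0.05 there were 4 higher and 1 lower, against 21.6% and 25.7% of all subfamilies, and DESeq2 called none at 2-fold. L1MD1 (0.94, adjusted p = 0.0017) and L1MC2 (0.74, adjusted p = 0.0017) passed the test below 2-fold in the higher direction (18% of all subfamilies). L1MCc (−0.60) did so in the lower one (20.6%). Without series bl the L1MD1 change was 1.6 and that of L1MC2 1.18.

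Mock IP set against total RNA compares the control pulldown with unselected RNA of these cells, and the direction depended on the series of total RNA. All 17 fitted changes were below 0, with a median of −0.33 against −0.02 over all subfamilies. Without series bl all 17 were above 0, with a median of 0.15 against 0.01, and the mock IP mean was above the series b mean and below the series bl mean in all 17. None passed an adjusted p of 0.05 by edgeR, where 2.23% of all subfamilies were higher at any size and 0.652% lower, and 0.745% and 0% at 2-fold. At an unadjusted p under 0.05 there were 7 lower and 0 higher, against 16.7% and 12.2% of all subfamilies, and DESeq2 called none at 2-fold. L1MCa, for example, had 1801, 1858 and 1802 CPM in mock IP libraries, against 1618 and 1634 CPM in series b and 3058 to 3441 CPM in series bl.

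The groups also differed in the place of the copies that were read. Copies outside every gene span held 23.98% to 24.96% of the L1MC and L1MD reads in ORF2p RIP libraries and 12.4% to 14.4% in ORF1p RIP libraries. The share was 21.4% to 22.5% in mock IP libraries, 21.0% to 21.2% in total RNA series b and 28.3% to 29.6% in series bl. Every ORF1p RIP library was therefore below every other library. The same held for all other repeats, with 29.6% to 30.5% outside spans in ORF2p RIP, 14.5% to 19.9% in ORF1p RIP, 29.8% to 30.2% in mock IP and 25.4% to 30.5% in total RNA libraries. A low share in the ORF1p RIP was therefore seen in the other repeats too. Over the other L1 copies, ORF1p RIP replicates 1, 2 and 4 had 21.3% to 21.9% and replicate 3 had 28.2%. Total RNA series b had 26.7% and 26.3%, so replicate 3 was not below every other library there.

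**Figure D3:**
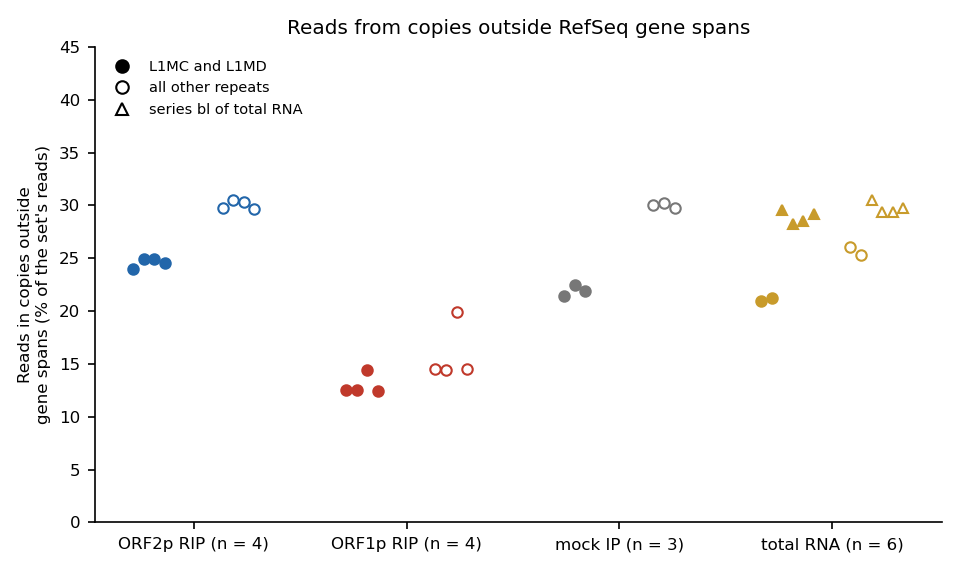
Share of reads in copies outside RefSeq gene spans in each library, filled for L1MC and L1MD and open for all other repeats. The ORF1p RIP libraries lie at 12.4% to 14.4% and 14.5% to 19.9%, below every library of the other groups, and triangles mark total RNA series bl.

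Summed over the copies outside spans only, 11 of 17 subfamilies were at least 2-fold higher in the ORF2p RIP than in the ORF1p RIP, against 48.2% of all subfamilies higher and 3.61% lower. The changes of L1MCb (2.91), L1MCc (2.03), L1MC (1.82), L1MD2 (1.71) and L1MDa (1.63) were the largest. L1MD (0.04) and L1MDb (−0.14) did not pass the test. In ORF1p RIP over mock IP, L1MCb (−2.17), L1MCc (−1.94) and L1MD1 (−1.20) were called lower, against 42.1% of all subfamilies lower and 4.29% higher. In ORF2p RIP over mock IP, L1MDa (1.36), L1MC (1.17) and L1MD2 (1.12) were called higher, against 7.99% higher and 1.75% lower. Over the copies in or across spans, L1MD1 (1.65) was the 1 member called in ORF2p RIP over mock IP, against 5.88% of all subfamilies higher and 2.43% lower. There the ORF1p RIP over mock IP gave 8 of 17 higher at any size (37.3% of all) and L1MCb lower at −0.93 (14.8%), with no member past 2-fold, against 9.8% of all subfamilies higher and 6.54% lower. Against total RNA the ORF1p RIP was called lower outside spans in 12 of 17, against 48.8% of all subfamilies lower and 4.78% higher, and in 3 without series bl. In or across spans, L1MCb (−1.58) was the 1 member lower at 2-fold there, against 6.16% of all subfamilies lower and 13.2% higher. In the same sums L1MD1 was the 1 member higher in the ORF2p RIP relative to the ORF1p RIP (1.1, against 8.59% higher and 12.7% lower) and to total RNA (1.26, against 5.6% higher and 1.87% lower). Outside spans no member passed 2-fold in ORF2p RIP over total RNA, against 6.14% of all subfamilies higher and 1.95% lower. Mock IP over total RNA called no member in either place, against 0.975% higher and 0.195% lower outside spans and 0.84% and 0% in or across them.

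Reads were concentrated on the fewest copies in the ORF2p RIP. In each library, copies were ranked by reads, and 50% of the L1MC and L1MD reads fell on 800 to 878 copies in ORF2p RIP libraries. The same share took 2720 to 2756 copies in ORF1p RIP replicates 1, 2 and 4, 1389 in replicate 3, and 3344 to 3699 in mock IP libraries. It took 4305 and 4317 copies in total RNA series b and 1727 to 2018 in series bl. The leading 100 copies held 27.5% to 28.6% in ORF2p RIP, 11.1% to 16.99% in ORF1p RIP, 10.03% to 10.7% in mock IP and 9.71% to 15.95% in total RNA libraries. Copies of 2000 bases or more held 8.33% to 8.89% of the reads in ORF2p RIP, 5.27% to 7.05% in ORF1p RIP and 6.62% to 6.87% in mock IP libraries. They held 6.13% to 6.27% in total RNA series b and 9.81% to 11.5% in series bl, above every ORF2p RIP library. The number of copies for a given share depends on depth, and the ORF2p RIP libraries were not the shallowest.

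**Figure D4:**
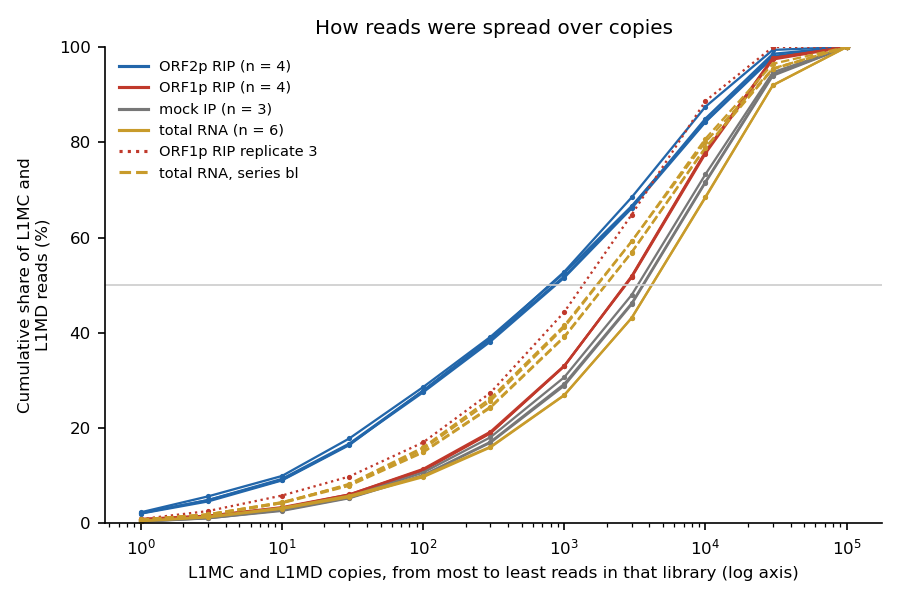
Cumulative share of L1MC and L1MD reads against the number of copies, ranked within each library, on a log axis. The ORF2p RIP curves reach 50% at 800 to 878 copies, left of every other library, and the dotted ORF1p RIP replicate 3 reaches it at 1389.

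At the level of single copies, 1840 passed the filter on low counts, 1.51% of the members. A copy could pass through the group in which it is high, so these counts describe the tested copies and not all members. In ORF2p RIP over mock IP, 502 were called higher and 181 lower at 2-fold, 27.3% and 9.84% of those tested, where 33.1% and 14.5% of tested copies of all repeats were called. For ORF1p RIP over mock IP the counts were 609 higher and 706 lower, 33.1% and 38.4%, against 39.8% and 37.9% of all. With only those 2 groups in the fit, the total for ORF1p RIP over mock IP was 474 in place of 1315, with 317 higher and 157 lower. Without series bl it was 480 higher and 383 lower, so the direction with more calls depended on the libraries in the fit. Between the pulldowns 871 were higher and 516 lower in ORF2p RIP, 47.3% and 28.0%, against 47% and 28.5%, and the total was 525 in place of 1387 with only those 2 groups, with 348 higher and 177 lower. Against total RNA, the ORF2p RIP had 472 higher and 524 lower, 25.7% and 28.5%, against 34.3% and 19.6% of all repeats. The ORF1p RIP had 529 higher and 842 lower, 28.75% and 45.8%, against 38.9% and 40.2% of all repeats. Without series bl the ORF2p RIP had 565 higher and 55 lower and the ORF1p RIP 548 higher and 351 lower, so the balance of these calls depends on the series. Mock IP over total RNA gave 64 higher and 93 lower, 3.48% and 5.05%, against 8.17% and 3.83% of all repeats. Here too the balance depended on the libraries. It was 62 higher and 653 lower without series b, 65 and 425 without total RNA replicate 1, 62 and 410 without replicate 2, and 19 and 3 without mock IP replicate 1. The counts with groups, series or libraries left out have no share over all repeats beside them. They are therefore not read as particular to these copies. Of 469 tested copies outside spans, the ORF1p RIP had 94 higher and 295 lower than the mock IP, or 20.04% and 62.9%, against 24.6% and 59.9% of tested copies of all repeats outside spans. Of 1371 in or across spans it had 515 higher and 411 lower, or 37.6% and 29.98%, against 46.6% and 28.1% of all repeats there. In L1MCb, 40 copies were tested and the ORF1p RIP had 0 higher and 31 lower than the mock IP, while 9 were higher and 1 lower in the ORF2p RIP. These copies are part of the L1MCb sum already called lower in the ORF1p RIP. Their count is therefore no separate support, and neighbours among them may share 1 transcript.

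Some copies stood far higher in the ORF2p RIP than in the mock IP. The leading L1MD1 copy had 1243, 1265, 1183 and 1144 CPM in ORF2p RIP libraries, against 119, 126, 430 and 110 CPM in ORF1p RIP and 25.2, 25.6 and 18.3 CPM in mock IP libraries. In total RNA it ran between 7.23 and 89.6 CPM. The ORF2p RIP, ORF1p RIP and mock IP libraries did not overlap, and ORF2p RIP over mock IP was 5.71 ± 0.85 on the log2 scale (adjusted p = 2e-05). Another L1MD1 copy nearby, chr8:33045272-33045980, had 663, 471, 426 and 507 CPM in ORF2p RIP, 70.0 to 113 CPM in ORF1p RIP and 18.9 to 24.4 CPM in mock IP libraries. Both lie in the same gene span and may be read from 1 RNA. An L1MC copy across the edge of a span, chr7:143523016-143524560, had 196, 209.7, 189.5 and 196 CPM in ORF2p RIP, against 2.13, 1.42, 1.6 and 2.19 CPM in ORF1p RIP and 1.23, 1.88 and 2.08 CPM in mock IP libraries. Its log2 change over the mock IP was 6.83 ± 0.79 (adjusted p = 1.8e-06). The leading L1MD3 copy, in the spans of CA5BP1 and CA5BP1-CA5B (a carbonic anhydrase pseudogene and its readthrough), had 255 to 275 CPM in ORF2p RIP, 9.96 to 33.0 in ORF1p RIP and 9.77 to 11.0 CPM in mock IP libraries.

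In 2 zinc finger gene spans on chromosome 10, the leading copies of L1MC2 and L1MC4a rose in both pulldowns. The leading L1MC2 copy in ZNF33A had 362, 398, 365 and 330 CPM in ORF2p RIP libraries, 95.0, 99.4, 261 and 111 in ORF1p RIP libraries and 15.3 to 18.4 CPM in mock IP libraries. The log2 changes over the mock IP were 4.47 ± 0.58 for the ORF2p RIP (adjusted p = 5.1e-06) and 3.11 ± 0.54 for the ORF1p RIP (adjusted p = 3.2e-05). The leading L1MC4a copy in ZNF37A had 137 to 281 CPM in ORF2p RIP, 24.95 to 59.3 CPM in ORF1p RIP and 4.96 to 5.32 CPM in mock IP libraries. Both copies are on the strand of their gene, although no source used here says whether the counting used strand.

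Among the copies with the largest change in ORF2p RIP over mock IP, 2 overlap on chromosome X in MAGEA3-DT, a divergent transcript beside a cancer-testis antigen gene. The L1MD2 copy (chrX:152667055-152667527) had 38.7, 40.3, 31.5 and 37.5 CPM in ORF2p RIP, against 0.183 to 0.451 CPM in mock IP libraries (6.87 ± 0.63, adjusted p = 1.7e-07). It had at most 0.456 CPM in ORF1p RIP libraries. The L1MDa copy that overlaps it (chrX:152666964-152667087) had 9.80 to 14.8 CPM in ORF2p RIP and no read in ORF1p RIP libraries, at least 127-fold higher against a floor of 3 reads over that group. An L1MD1 copy in LOC105377302 had 10.7 to 16.3 CPM in ORF2p RIP and 0 to 0.183 CPM in mock IP libraries. An L1MCb copy in TRABD2A, a gene for a membrane metalloprotease, had 5.41 to 11.0 CPM in ORF2p RIP and 2 reads in all mock IP libraries. That is a ratio of 215, with a 95% interval of 59.6 to 1777 for counting error only.

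The copies lower in the ORF2p RIP than in the mock IP named here lay in the spans of protein-coding genes. In SELENOT, a selenoprotein gene, an L1MC4 copy had 0 to 0.532 CPM in ORF2p RIP, 6.84 to 11.9 CPM in ORF1p RIP and 1.95 to 3.4 CPM in mock IP libraries. In GLO1, which encodes glyoxalase I, a pair of L1MDa copies had 0.314 to 1.23 and 0 to 0.745 CPM in ORF2p RIP, against 5.51 to 8.66 and 2.26 to 5.84 CPM in mock IP libraries. An L1MC1 copy in ZMYND11, a chromatin reader gene, had 0 to 0.532 CPM in ORF2p RIP and 1.80 to 3.36 CPM in mock IP libraries. All of these levels are low, and their ORF2p RIP values rest on few reads.

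A copy high in the ORF1p RIP lay in ITGB1, which encodes integrin beta 1. This L1MD copy (chr10:32908633-32909592, on the strand opposite to the gene) had 352, 292, 492 and 392.02 CPM in ORF1p RIP libraries, against 9.83, 10.1 and 7.29 CPM in mock IP libraries. It had 29.9, 23.8, 29.5 and 19.9 CPM in ORF2p RIP libraries and 19.9 to 48.6 CPM in total RNA libraries. By edgeR the mock IP was lower than total RNA (log2 change −1.60, adjusted p = 0.0041), and ORF1p RIP over total RNA was 3.79 ± 0.28. The log2 change in ORF1p RIP over mock IP was 5.39 ± 0.40 (adjusted p = 9.4e-10), and the copy held 15.7% of the L1MD level in the ORF1p RIP, against 0.642% in the mock IP. The leading L1MDb copy, in CLTC (clathrin heavy chain), had 29.0 to 45.1 CPM in ORF1p RIP and 2.99 to 3.91 CPM in mock IP libraries. The leading L1MC5a copy lay in SMN1 with 161, 177, 492 and 144 CPM in ORF1p RIP, against 14.3 to 17.3 CPM in mock IP libraries. SMN1 has a near-identical copy, SMN2, and how reads were shared between them is unknown, so this locus is uncertain.

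Several copies named for a large rise in the ORF1p RIP over the mock IP or the ORF2p RIP had almost no read in another group. An L1MC5 copy in FBLN7, a gene for an extracellular matrix protein, had 11.8, 13.8, 10.9 and 12.4 CPM in ORF1p RIP libraries. It had 1 read in all mock IP libraries (ratio 568, 95% interval 102 to 22428 for counting error only) and none in total RNA, where the ORF1p RIP was at least 442-fold higher. An L1MC5 copy in the span of RIPOR2 had 25.3 to 51.5 CPM in ORF1p RIP and 0 to 0.366 CPM in mock IP libraries. It had no read in ORF2p RIP libraries, which makes the ORF1p RIP at least 463-fold higher. A pair of L1MDa copies in the long noncoding RNA gene LINC01411 had 18.7 to 32.4 and 13.9 to 22.4 CPM in ORF1p RIP and no read in ORF2p RIP libraries, at least 318-fold and 240-fold apart. An L1MCa copy in LOC105369842 had 18.8, 18.9, 127 and 27.1 CPM in ORF1p RIP and 0.153 to 0.225 CPM in mock IP libraries, so that replicate 3 sets much of its mean.

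The opposite pattern was also found. The 4 copies named for the largest fall in ORF1p RIP over mock IP had no read in any ORF1p RIP library. They were an L1MD2 copy in LINC01695 (18.7 to 20.7 CPM in mock IP, at least 210-fold), an L1MCc copy in A2ML1-AS1 (17.6 to 21.3 CPM, at least 207-fold), an L1MC2 copy at chr2:83498211-83499418 (15.2 to 18.6 CPM, at least 181-fold) and an L1MCa copy in LHFPL4 (14.1 to 15.7 CPM, at least 165-fold). The L1MCb copy that holds the LOC107986840 start, shown above, had 0.320, 0, 0 and 0.228 CPM in ORF1p RIP, against 36.2, 44.2 and 37.7 CPM in mock IP libraries. It had 28.8 to 35.8 CPM in ORF2p RIP, 10.04 and 7.97 CPM in total RNA series b and 89.5 to 139 CPM in series bl libraries. ORF1p RIP over mock IP was −7.94 ± 0.99 (adjusted p = 6.8e-07), while ORF2p RIP over mock IP was −0.29 ± 0.68 and did not pass. The L1MCa copy with the LOC112268095 start had 0.209 to 2.58 CPM in ORF2p RIP, 2.74 to 6.60 CPM in ORF1p RIP and 2.81 to 3.89 CPM in mock IP libraries. Neither pulldown passed the test against the mock IP, at −1.17 ± 0.67 for the ORF2p RIP and 0.27 ± 0.65 for the ORF1p RIP. The libraries of both pulldowns did not overlap, and ORF2p RIP over ORF1p RIP was −1.44 ± 0.64 (adjusted p = 0.046).

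**Figure D5:**
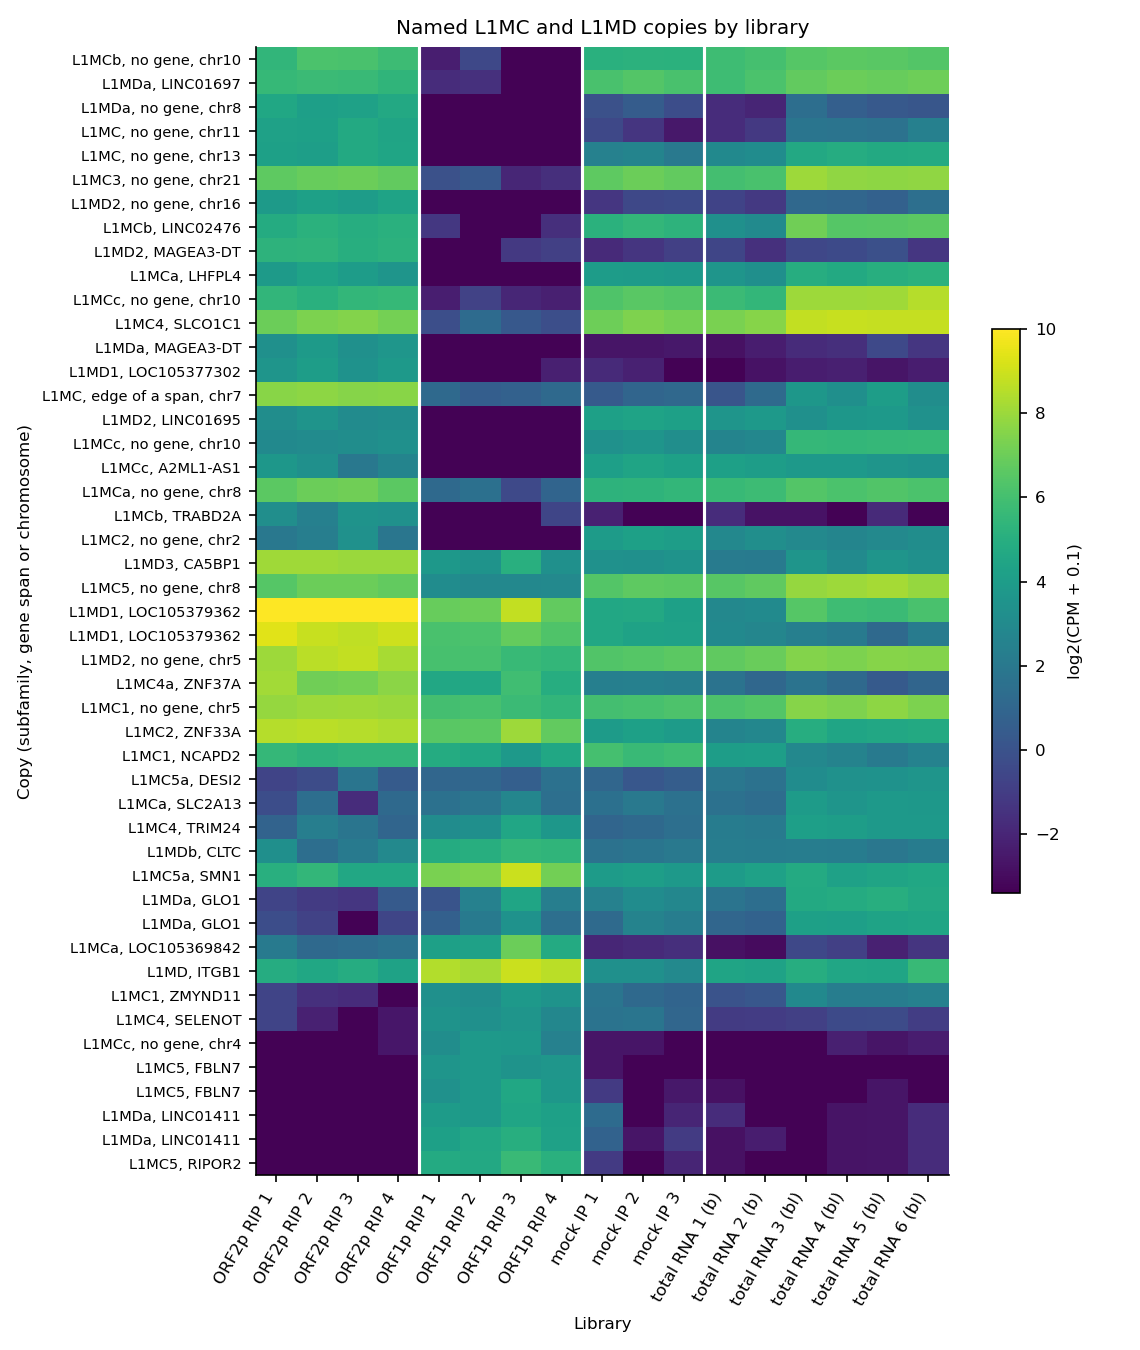
Level of 47 named copies in each library, as log2(CPM + 0.1), with rows sorted by ORF2p RIP minus ORF1p RIP. Many rows of the upper part are dark in all 4 ORF1p RIP libraries, such as the L1MCb copy in LINC02476 at 0 to 0.320 CPM against 36.2 to 44.2 CPM in mock IP libraries.

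This pattern was counted over all members with limits chosen after the values had been seen. In each of the 13 libraries outside the ORF1p RIP group, 308 copies had at least 5 CPM. Of these, 88 were under 0.5 CPM in every ORF1p RIP library, or 28.6%, and over all repeats the figure was 1489 of 5891, or 25.3%. The 88 copies came from 16 of the 17 subfamilies and 19 chromosomes, 46 lay outside gene spans, and 5 had no read at all in the ORF1p RIP. LINC02476 held 9 of them, MIR4300HG 3 and LOC105378469 3. L1MC1 gave 14, L1MC3 13 and L1MD2 8. In the other direction, 12 of 882 copies with at least 5 CPM in every ORF1p RIP library were under 0.5 CPM in all 13 others (1.36%, against 2.00% of all repeats). The same count for the ORF2p RIP was 0 of 127 copies near-absent from it and 1 of 961 found in it alone. Over all repeats these were 0 of 2224 and 35 of 18440. For the mock IP both were 0, of 105 and 722 copies, and for total RNA both were 0, of 152 and 440 copies. Over all repeats they were also 0, of 1897 and 14499 copies for the mock IP and 2801 and 8604 for total RNA. Copies missing from 1 group only were therefore counted for the ORF1p RIP alone among the 4 groups, in all repeats as in these copies. Whether the pulldown or the source of the cells goes with this pattern cannot be told apart.

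Copies low in the ORF1p RIP can follow each other along a chromosome. Between chr12:20690302 and chr12:20759326, 9 tested copies of L1MC5, L1MC5a, L1MC4 and L1MD lie in or beside SLCO1C1, a gene for an organic anion transporter, and were picked after their values were seen. Their means were 19.5 to 155 CPM in ORF2p RIP, 0.0595 to 1.26 CPM in ORF1p RIP, 11.2 to 149 CPM in mock IP and 10.4 to 356 CPM in total RNA libraries. The leading L1MC4 copy, chr12:20748239-20749084, was among them, with 129, 163, 182 and 146 CPM in ORF2p RIP, 0.774, 2.36, 1.13 and 0.798 CPM in ORF1p RIP and 131, 171 and 145 CPM in mock IP libraries. On chromosome 10, the leading L1MCb copy (chr10:106034452-106037645) and the leading L1MCc copy (chr10:106033299-106034015) are neighbours outside every span. The L1MCb copy had 42.1 to 73.4 CPM in ORF2p RIP, 0 to 0.621 CPM in ORF1p RIP and 33.8 to 36.4 CPM in mock IP libraries. The L1MCc copy had 34.9 to 47.8, 0.107 to 0.497 and 78.9 to 94.5 CPM in the same groups. It held 19.7% of the mean L1MCc level in total RNA, with 53.4 and 45.1 CPM in series b and 260 to 363 CPM in series bl. Neighbouring copies may share 1 transcript and are not independent.

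The other L1M families also had median changes above 0 over the mock IP in both pulldowns, and the sizes differed between families. In ORF2p RIP over mock IP the median log2 change was 0.46 over L1MC and L1MD, 0.79 over the 12 L1MA subfamilies, 0.50 over the 7 of L1MB and 0.40 over the 27 of L1ME. At 2-fold, 2 of 17, 4 of 12, 2 of 7 and 2 of 27 were called higher. In ORF1p RIP over mock IP the medians were 0.26, 0.09, 0.29 and 0.34, and L1MCb was the only subfamily of these families called in either direction. No test of the difference between families was made.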

How the data were processed

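The submitters' processing notes name the aligner STAR and the build hg38. The authors deposited expected counts per repeat locus, made from reads aligned to hg38, which need not be whole and were not normalized. The counting program, its treatment of reads with several matches and its use of strand are not given in the sources used here. Per the labels, RNA was taken from the affinity media, depleted of ribosomal RNA and made into libraries with a Tecan Trio kit. The table holds 43 further columns that matched no sample and were not used.

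Counts were summed per subfamily and rounded. edgeR 4.0.16 (R 4.3.3, limma 3.58.1) was fitted to all 17 libraries by group, with TMM factors from the subfamilies, quasi-likelihood tests and Benjamini-Hochberg adjustment over 1074 subfamilies (minimum count 10) or 32032 copies (minimum count 100). A call is an adjusted p under 0.05 and at least 2-fold. SE is the log2 change over the root of F. Comparisons with the same control share its libraries. Gene spans are RefSeq GRCh38.p14 (59675 spans). Intervals and the floor of 3 reads cover counting error only. The fit was run on simulated counts with the same spread for every subfamily or copy and changes placed in the ORF1p RIP alone. Those counts held no series of total RNA and no outlying library, so the run does not cover these features.

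The members and lists were chosen with earlier results of these data known. Named copies are the leading copy of each subfamily, the copies with the largest called changes without overlap of libraries and at least 2 CPM in 1 group (4 in each direction for each comparison among the RIPs and mock IP, 2 for those with total RNA), and tested copies over a start site. Of 48, 1 is not reported here. Alternatives were library totals, DESeq2 1.42.0, other filters, a replicate block, only the groups compared, each library left out, each total RNA series left out, and sums without the leading copy, outside spans or from 1000 bases. Sums in or across spans, and the further settings for sums by place, were added after the data were seen.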

Additional observations from a re-analysis of the deposited data

Results flagged for a closer look

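In 12 of 75 groups of 4 or 6 libraries examined, 1 library lay far from the rest by Dixon's test, and all 12 were ORF1p RIP replicate 3. Chance gives such a flag in about 1 of 20 groups, and these measures share the same library. Its level was 4751 CPM in L1MC1, where the other ORF1p RIP libraries had 3505 to 3715 CPM. It was 2739 CPM in L1MC2 (others 1791 to 1942), 1893 CPM in L1MCa (1312 to 1343) and 629 CPM in L1MCc (468 to 494). In L1MD it was 3041 CPM (2185 to 2268), in L1MD2 4337 CPM (3035 to 3178) and in L1MDa 2591 CPM (1867 to 1954). Its copies outside gene spans held 14.4% of the reads (12.4% to 12.6%). Of its reads inside spans, 38.1% lay in copies on the gene's strand (29.5% to 30.7%) and 35.3% in copies on the opposite strand (44.6% to 45.4%). In that library 1389 copies held 50% of the reads (2720 to 2756), and the leading 100 copies held 16.99% (11.1% to 11.4%). The cause was not tested.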

How the results depend on the processing

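Of the subfamily values under the alternatives, 2415 kept their side of the threshold, 205 gained it, 102 lost it and 32 reversed. Of the copy values, 822 kept their side and 7 lost the threshold. A reversal was counted only where the main fit or the alternative passed the test, so the 32 leave out other changes of sign. For example, all 17 changes in mock IP over total RNA were below 0 in the main fit and above 0 without series bl. The cause was not tested unless the setting itself removes copies or libraries. With total RNA series bl left out, ORF1p RIP over total RNA turned to 0.33 for L1MC, 0.42 for L1MD1, 0.36 for L1MD2, 0.31 for L1MD3, 0.45 for L1MDa and 0.28 for L1MDb. ORF2p RIP over total RNA turned to 0.47 for L1MC3, 0.28 for L1MC5a, 0.56 for L1MCa, 0.45 for L1MCb, 0.039 for L1MCc and 0.61 for L1MD. With library totals, ORF2p RIP over total RNA turned to −0.31 for L1MC1, −0.27 for L1MC4 and −0.36 for L1MC5. Over copies outside spans, ORF1p RIP over mock IP turned to −0.074 for L1MC4a, −0.71 for L1MC5, −0.56 for L1MC5a, −1.20 for L1MD1 and −0.59 for L1MD2. There, ORF1p RIP over total RNA turned to −0.89 for L1MC2, −0.78 for L1MC4, −0.53 for L1MC4a, −1.28 for L1MC5 and −1.15 for L1MC5a. ORF2p RIP over ORF1p RIP turned to 0.84 for L1MC4a, 1.54 for L1MC5 and 1.15 for L1MC5a, ORF2p RIP over total RNA to −0.30 for L1MD1, and ORF2p RIP over mock IP to −0.15 for L1MDb. For copies of at least 1000 bases, L1MC5 turned to −0.77 in ORF1p RIP over total RNA and 0.91 in ORF2p RIP over ORF1p RIP.

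Subfamily calls at 2-fold moved as follows. ORF1p RIP over mock IP had 1, and 3 over copies outside spans or 2 over copies of at least 1000 bases. ORF2p RIP over mock IP had 2, and 1 with library totals, the replicate block or either total RNA series left out. ORF2p RIP over ORF1p RIP had 2, and 1 with library totals or without the leading copy, 11 outside spans and 5 from 1000 bases. ORF1p RIP over total RNA had 2, and 1 with the replicate block, without series bl or without the leading copy, and 12 outside spans. ORF2p RIP over total RNA had 0, and 1 with library totals, the replicate block or from 1000 bases, and 3 without series bl. Summed outside spans, library totals gave 1 for ORF2p RIP over mock IP (3 otherwise), 1 for ORF2p RIP over total RNA (0 otherwise) and 2 for mock IP over total RNA (0 otherwise). ORF1p RIP over total RNA outside spans gave 3 without series bl (12 otherwise), ORF2p RIP over total RNA 1 without series b and 3 without series bl, and mock IP over total RNA 6 without series b. Summed in or across spans, library totals gave 1 for ORF1p RIP over mock IP and 0 for ORF2p RIP over ORF1p RIP. There, ORF1p RIP over total RNA gave 0 without series bl, and ORF2p RIP over total RNA 2 without series b and 3 without series bl.

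Copy calls were 1315 in ORF1p RIP over mock IP, and 2797 with a minimum count of 50, 474 with only the 2 groups and 863 without series bl. They were 683 in ORF2p RIP over mock IP (1312 at 50) and 1387 in ORF2p RIP over ORF1p RIP (2975 at 50, 525 with only the 2 groups, 881 without series bl). They were 1371 in ORF1p RIP over total RNA (2905, 887 and 899) and 996 in ORF2p RIP over total RNA (2031 at 50, 620 without series bl). Mock IP over total RNA had 157, and 251 with library totals, 340 with DESeq2, 8 with the replicate block, 76 with only the 2 groups and 715 without series b.

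With each library left out in turn, subfamily calls were 1 to 2 in ORF2p RIP over mock IP, 1 to 3 in ORF1p RIP over total RNA and 0 to 1 in ORF2p RIP over total RNA (1 without total RNA replicate 3). Copy calls ran from 1074 to 1357 in ORF1p RIP over mock IP, 532 to 703 in ORF2p RIP over mock IP, 1123 to 1423 in ORF2p RIP over ORF1p RIP, 1089 to 1419 in ORF1p RIP over total RNA and 758 to 1014 in ORF2p RIP over total RNA. For mock IP over total RNA they ran from 22 to 490, with 22, 40 and 32 without mock IP replicates 1, 2 and 3, 490 and 472 without total RNA replicates 1 and 2, and 82, 62, 64 and 73 without replicates 3, 4, 5 and 6. Without ORF1p RIP replicate 3, sums in or across spans gave 1 call in ORF1p RIP over mock IP and 2 in ORF2p RIP over ORF1p RIP. Deviations of libraries with the same replicate number correlated at −0.47 to 0.45, and those with different numbers at −0.49 to 0.47. With so few libraries a group this cannot exclude shared cultures or batches. The replicate block is given here only.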

Other observations

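Of 1562 miRNA hairpins in RefSeq (GRCh38.p14), 5 lie in an L1MC or L1MD copy, and these were looked at after the values were known. The copies with reads in most libraries are shown with their mature sequences, the seed (bases 2 to 8) in capitals.
hsa-miR-3657: uGUGUCCCauuauuggugauu
hsa-miR-625-3p: gACUAUAGaacuuucccccuca
hsa-miR-625-5p: aGGGGGAAaguucuauagucc
The L1MC4 copy of hsa-miR-3657 (chr12:112037322-112038019, in NAA25) had reads in 17 libraries, with a mean of 1.64 CPM and a highest value of 4.67 CPM. The L1MCa copy of hsa-miR-625 (chr14:65470951-65471811, in FUT8, a fucosyltransferase gene) had reads in 15 libraries, with a mean of 0.290 CPM. The copies of hsa-miR-552, hsa-miR-606 and hsa-miR-7157 had 2, 0 and 10 reads in all libraries. The 8 mature sequences of the 5 hairpins have 8 distinct seeds. Reads of a copy are not reads of the mature miRNA.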
